A study of Mus musculus with 6 samples.

Results

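A set of 37 genes that mark T cells and natural killer (NK) cells was followed in the livers of 2 yr old mice with and without chromogranin A (CgA). The genes were chosen by name, as the components of the T cell receptor, markers of T cell subsets, exhaustion genes, cytotoxic granule genes and NK receptors, and all 37 have a row among the 32212 rows of the deposited count table. CgA is a prohormone of neuroendocrine cells, and CgA-KO mice lack it. Its gene Chga had 0 reads in all 6 libraries, so these data cannot check the genotype labels. The study compared 3 WT with 3 CgA-KO mice, all male, of age 2 yr, on the C57BL/6 background and fed normal chow, and sequenced poly(A)-selected RNA from a piece of liver with one library per mouse. No promoter, Cre or clone is named for the knockout, and no liver was depleted of or sorted for any cell, so the RNA is that of whole liver.

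T cells recognise antigen through a receptor whose chains signal through the CD3 subunits, and the coreceptors CD4 and CD8 divide them into helper and cytotoxic cells. NK cells lack that receptor and read activating and inhibitory lectin-like receptors instead, while both kinds of cell kill through perforin and granzymes. The liver holds many resident NK cells and T cells in its sinusoids, and T cells accumulate there with age.

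The total counts ranged from 10558616 to 31087453 per library, and 3 counts, taken as the lowest level that can be seen, correspond to 0.0950 to 0.268 CPM. CPM are counts relative to the depth of the library, corrected by TMM factors, which set the libraries to a common scale over their shared genes. Values by library are given in the order of replicates 1, 2 and 3 of each genotype. Hepatocyte markers summed to 39510 to 81960 CPM in the 6 libraries, as the tissue label states, and 0 of 6 were called by edgeR, 1 at an unadjusted p under 0.05 and 1 by DESeq2, both lower in CgA-KO. CgA-KO replicate 2 stood apart from the other livers. Its markers of neutrophils and their progenitors summed to 393 CPM, against 28.2 and 36.6 CPM in CgA-KO replicates 1 and 3 and 3.68 to 12.8 CPM in WT. Fold changes are therefore also given with that library omitted, and the part of those cells in the results was not tested.

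Most of the 37 T and NK cell genes were more abundant in CgA-KO livers. Of the NK receptors, Klrb1c and Ncr1 overlapped between the genotypes. The summed level of the 37 genes was 73.3, 54.5 and 42.4 CPM in WT and 158, 546 and 134 CPM in CgA-KO. All 3 CgA-KO livers lay above all 3 WT livers, and CgA-KO replicate 2 lay far above the other CgA-KO livers. Zap70 alone, which overlapped between the genotypes, held 13.0, 27.7 and 12.5 CPM of the sum in WT. In CgA-KO it held 13.5, 19.6 and 15.7 CPM. The median gene of the set stood at 4.37, 15.3 and 4.13 times its WT mean in CgA-KO replicates 1, 2 and 3, where the median of all genes tested stood at 0.991, 0.996 and 0.969. In whole-liver RNA, more cells of a type and more RNA per cell cannot be told apart.

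The filter on low counts, which asks for 3 libraries at 0.436 CPM or more, was passed by 33 of the 37 genes and not by Foxp3, Ctla4, Gzmk and Ncr1. Of the 33, 26 had fewer than 3 WT libraries at that level and 3 (Lef1, Prf1 and Klrd1) had none, so they entered the test through their level in CgA-KO. By the quasi-likelihood test of edgeR, adjusted by Benjamini-Hochberg over 13867 genes, 16 were higher in CgA-KO at an adjusted p under 0.05 and 0 were lower (0 also at an unadjusted p under 0.05 and with DESeq2), where 8.60% of all genes tested were higher and 3.84% lower. At an unadjusted p under 0.05 the count of higher genes was 27. The share of all genes at that threshold is not given here, so this count has no background beside it. With DESeq2 the count of higher genes was 23 at an adjusted p under 0.05, where 10.8% of all genes were called higher. DESeq2 tested a different 33 of the 37 genes. It gave no adjusted p for Thy1, Tcf7, Eomes and Ncr1, but tested Foxp3, Ctla4 and Gzmk. Of these, Ctla4 and Gzmk were among its calls. Without CgA-KO replicate 2 the count was 6 in edgeR, where 5.08% of all genes were called higher. With a filter of a total of at least 1 count, all 37 were tested and 9 were called, against 5.62% of all genes. The median log2 fold change was 3.16 over the 33 genes tested and -0.01 over all genes, and without CgA-KO replicate 2 it was 2.28 over 34 genes.

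Read library by library, every CgA-KO liver exceeded every WT liver in 24 of the 37 genes, a pattern found in 19.0% of all genes tested. The other 13 overlapped, and none lay the other way. Of the 24, Foxp3, Ctla4 and Gzmk did not pass the filter, while the shares over all genes, here and below, cover only genes that did. The smallest p of an exact two-sided permutation test on a single gene is 0.1 in this design, and all 24 had it. CgA-KO replicate 1 alone exceeded all WT livers in 32 genes, replicate 2 in 28 and replicate 3 in 28, where 33.9%, 34.7% and 30.0% of all genes tested lay above all WT livers. With replicate 2 left out 26 genes were separated, beside 23.6% of all genes tested.

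**Figure D1:**
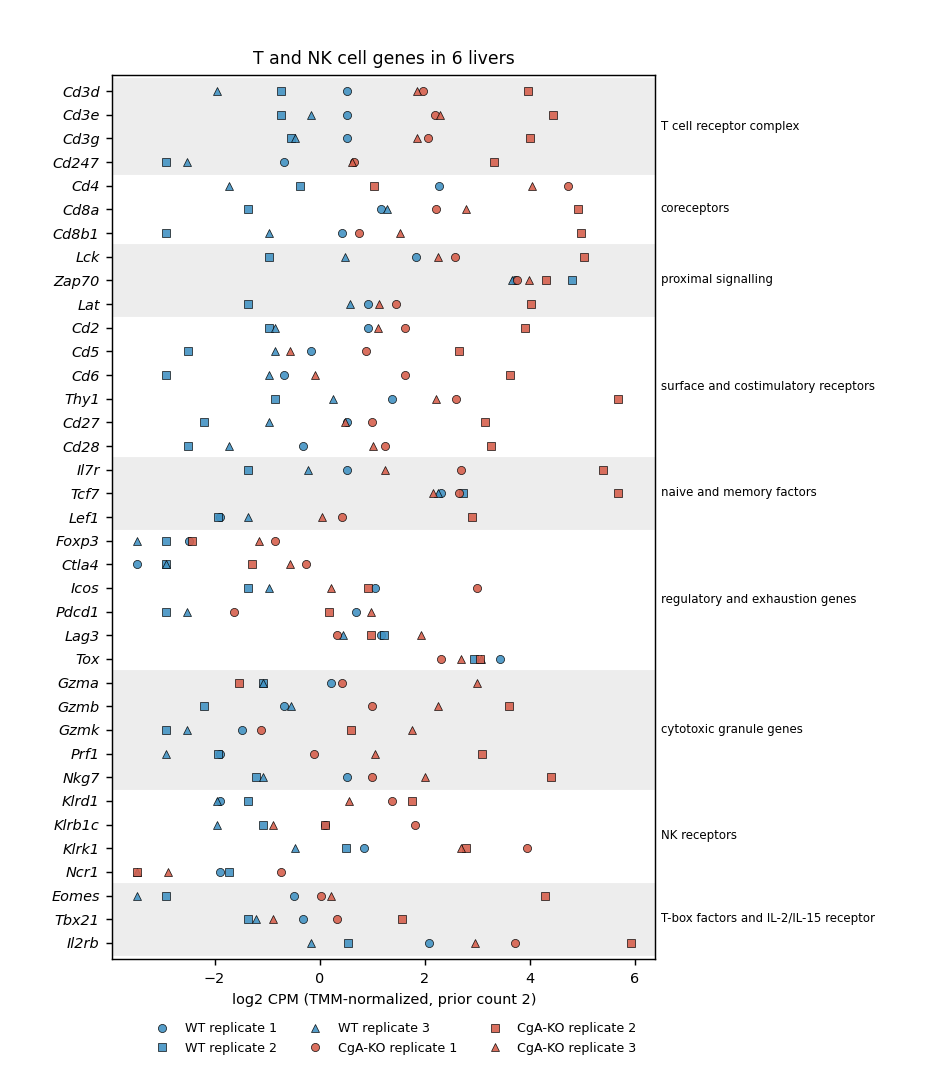
Level of each of the 37 genes in each library, as log2 CPM with a prior count of 2 on the horizontal axis, genes grouped by role on the vertical axis, blue symbols for the 3 WT and red for the 3 CgA-KO livers. In 24 genes every red symbol lies to the right of every blue one, and the red square, CgA-KO replicate 2, is the highest of the 6 livers in 24 genes.

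The signalling subunits of the T cell receptor rose together. Cd3e, one of the CD3 chains, stood at 1.34, 0.510 and 0.804 CPM in WT and at 4.45, 21.5 and 4.79 CPM in CgA-KO (log2 fold change 3.60, SE 0.71, edgeR adjusted p = 0.0150). Cd3g, its partner chain, stood at 1.34, 0.595 and 0.635 CPM in WT and at 4.08, 15.9 and 3.54 CPM in CgA-KO (log2 fold change 3.27, SE 0.67, edgeR adjusted p = 0.0170). The groups did not overlap for either gene, and both kept the call without CgA-KO replicate 2, with log2 fold changes of 2.47 (adjusted p = 0.0315) and 2.24 (adjusted p = 0.0401). Cd3d, the third chain, stood at 1.34, 0.510 and 0.169 CPM in WT and at 3.80, 15.6 and 3.49 CPM in CgA-KO (log2 fold change 3.65, SE 0.82, edgeR adjusted p = 0.0230). Cd247, the zeta chain that carries most of the signal into the cell, stood at 0.537, 0.0425 and 0.0847 CPM in WT and at 1.48, 9.82 and 1.43 CPM in CgA-KO (log2 fold change 4.59, SE 1.09, edgeR adjusted p = 0.0281). Without CgA-KO replicate 2 the log2 fold changes of Cd3d and Cd247 were 2.60 and 3.03, with adjusted p = 0.0735 and 0.0890. Summed over the 4 chains, CgA-KO replicates 1 and 3 stood at 13.8 and 13.3 CPM, replicate 2 at 62.8 CPM and WT at 1.66 to 4.56 CPM. In WT most of these values rest on few counts, such as 6, 1 and 2 reads for Cd247. Of the 16 called genes, 6 (Cd247, Cd6, Cd28, Lef1, Prf1 and Klrd1) had a WT library under 3 reads, so the size of their fold change is uncertain. Pooled over livers and scaled for depth, the ratio was 32.1 for Cd247 (95% exact interval 16.7 to 70.8), 36.1 for Prf1 (17.3 to 90.5) and 11.2 for Klrd1 (6.41 to 21.5), for counting error only.

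Cd3d, Cd3e and Cd3g lie side by side on chromosome 9 of GRCm38, with 1.35 kb between Cd3g and Cd3d, 11.4 kb between Cd3d and Cd3e and no other coding gene in the gaps. The 250 bases before the start sites of Cd3d (chr9:44981536-44981785, plus strand) and Cd3e (chr9:45009612-45009861, minus strand) are shown because both genes rose together. Beside them are those of Klrk1 (chr6:129623865-129624114, minus strand), Gzmb (chr14:56262335-56262584, minus strand) and Prf1 (chr10:61297586-61297835, plus strand), 3 genes of killing that are described further on. The sequences are those of RefSeq on GRCm38.p6, each written along its own gene, and capitals mark letters of the binding motifs of RUNX factors (TGTGGT), ETS factors (GGAAGT) and TCF/LEF factors (CTTTGA), read on both strands.
Cd3d: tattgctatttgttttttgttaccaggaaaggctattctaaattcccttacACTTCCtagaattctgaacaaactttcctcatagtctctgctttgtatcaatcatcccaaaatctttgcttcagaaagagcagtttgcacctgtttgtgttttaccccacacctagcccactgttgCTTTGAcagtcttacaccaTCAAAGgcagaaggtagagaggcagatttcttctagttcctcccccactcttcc
Cd3e: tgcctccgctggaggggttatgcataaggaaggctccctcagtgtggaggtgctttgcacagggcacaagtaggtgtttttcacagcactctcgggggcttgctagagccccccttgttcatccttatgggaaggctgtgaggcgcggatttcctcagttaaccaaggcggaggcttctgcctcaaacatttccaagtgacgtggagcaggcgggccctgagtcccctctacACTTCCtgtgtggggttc
Klrk1: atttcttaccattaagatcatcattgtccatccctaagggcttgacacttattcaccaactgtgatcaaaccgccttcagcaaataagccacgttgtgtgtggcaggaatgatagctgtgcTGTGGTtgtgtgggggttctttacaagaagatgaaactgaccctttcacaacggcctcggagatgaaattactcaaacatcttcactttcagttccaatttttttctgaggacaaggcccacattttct
Gzmb: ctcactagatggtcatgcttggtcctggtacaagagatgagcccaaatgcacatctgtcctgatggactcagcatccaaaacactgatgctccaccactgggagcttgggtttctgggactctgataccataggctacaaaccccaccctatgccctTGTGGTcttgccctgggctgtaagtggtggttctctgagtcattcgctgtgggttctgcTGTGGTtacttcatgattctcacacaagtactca
Prf1: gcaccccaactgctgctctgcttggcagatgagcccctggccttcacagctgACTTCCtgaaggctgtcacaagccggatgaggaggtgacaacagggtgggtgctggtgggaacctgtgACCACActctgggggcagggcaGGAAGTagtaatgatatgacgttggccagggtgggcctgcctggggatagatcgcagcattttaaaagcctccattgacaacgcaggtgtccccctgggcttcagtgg

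The 5 windows differ in the letters they hold. Those of Cd3d and Cd3e hold ETS but no RUNX letters, Gzmb and Klrk1 hold RUNX but no ETS letters, and Prf1 holds both. The window of Cd3g, which rose with Cd3d and Cd3e and is not shown, holds neither ETS nor RUNX letters. Its 1 match is to GATA letters. RefSeq promoters were matched for 26 of the 37 genes, 35 windows in all, and not for Lag3, Cd8b1, Il2rb, Icos, Cd6, Klrd1, Cd28, Cd4, Thy1, Tox and Cd2. RUNX letters stood in 10 of the 35 windows (28.6%), beside 14.05% of all 32851 promoter windows of that length. They were found for 7 of 8 cytotoxic granule and NK receptor genes with a window and for 2 of 18 others, Lck and Zap70. ETS letters stood in 14 of 35 windows (40.0%, beside 19.7% of all), and TCF/LEF letters in 4 (11.4%, beside 13.8%). GATA letters (AGATAA) stood in 2 windows (5.71%, beside 9.99%) and T-box letters (GGTGTGA) in 2 (5.71%, beside 3.33%). Such a match describes the letters of the window, and binding was not measured.

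The coreceptors diverged between livers. Cd8a, the alpha chain of CD8, stood at 2.15, 0.298 and 2.33 CPM in WT and at 4.55, 30.1 and 6.81 CPM in CgA-KO, and rose (log2 fold change 3.16, SE 0.86, edgeR adjusted p = 0.0449). Without CgA-KO replicate 2 it was 1.89 (adjusted p = 0.163). Cd8b1, the beta chain found on conventional cytotoxic T cells, stood at 1.25, 0.0425 and 0.423 CPM in WT and at 1.58, 31.4 and 2.78 CPM in CgA-KO (log2 fold change 4.61, SE 1.31, edgeR adjusted p = 0.0520; 2.10 and 0.229 with CgA-KO replicate 2 omitted). The CgA-KO livers were above WT for both chains, by little in replicate 1 for Cd8b1 and by far in replicate 2. Cd4, the helper coreceptor, which macrophages of some tissues also express, went the other way among the CgA-KO livers. It stood at 4.74, 0.681 and 0.212 CPM in WT and at 26.3, 1.96 and 16.4 CPM in CgA-KO, so that replicate 2 lay below WT replicate 1 and the groups overlapped (log2 fold change 3.14, SE 1.11, edgeR adjusted p = 0.0983; 3.72 and 0.0680 with replicate 2 omitted). Per kilobase of exon, the level of Cd8a was 0.192, 17.0 and 0.459 times that of Cd4 in CgA-KO and 0.502, 0.485 and 12.2 times in WT. The high WT value rests on 55 and 5 reads, and that of CgA-KO replicate 2 on 950 and 62 reads. Kupffer cell markers summed to 1227, 1188 and 812 CPM in the 3 CgA-KO livers, and their part in the level of Cd4 was not tested.

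Among the signalling proteins just below the receptor, 0 of 3 passed edgeR's test, 2 had an unadjusted p under 0.05 and 2, Lck and Lat, were called by DESeq2. Lck, the kinase that starts the signal, stood at 3.49, 0.425 and 1.31 CPM in WT and at 5.85, 32.7 and 4.66 CPM in CgA-KO (log2 fold change 3.16, SE 0.91, edgeR adjusted p = 0.0542; 1.69 and 0.205 with CgA-KO replicate 2 omitted). Lat, the adaptor that gathers the signalling complex, stood at 1.79, 0.298 and 1.40 CPM in WT and at 2.64, 16.2 and 2.11 CPM in CgA-KO (log2 fold change 2.65, SE 0.89, edgeR adjusted p = 0.0845; 1.10 and 0.369 with CgA-KO replicate 2 omitted). The genotypes did not overlap in either gene, with CgA-KO replicates 1 and 3 close above WT replicate 1. Zap70, the kinase that docks on the CD3 chains, had a different pattern, with 13.0, 27.7 and 12.5 CPM in WT and 13.5, 19.6 and 15.7 CPM in CgA-KO. The groups overlapped, the highest liver was WT replicate 2, and the log2 fold change was -0.13 (SE 0.32, edgeR adjusted p = 0.834), a sign that turned to 0.21 with scaling by library size alone. It was -0.24 (adjusted p = 0.726) with CgA-KO replicate 2 omitted. Per kilobase of exon, the level of Zap70 was 3.64, 63.7 and 9.35 times that of Lck in WT and 2.25, 0.588 and 3.30 times in CgA-KO. WT replicate 2 held 651 reads of Zap70 and 10 of Lck, and CgA-KO replicate 2 held 620 and 1032.

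Surface and costimulatory receptors were higher in CgA-KO replicate 2 than in any other liver, without exception among 6 genes. Thy1, a surface glycoprotein of mouse T cells that stromal cells also carry, stood at 2.51, 0.468 and 1.10 CPM in WT and at 5.94, 50.7 and 4.57 CPM in CgA-KO (log2 fold change 4.03, SE 1.02, edgeR adjusted p = 0.0351). Cd28, the main costimulatory receptor, stood at 0.716, 0.0851 and 0.212 CPM in WT and at 2.27, 9.47 and 1.93 CPM in CgA-KO (log2 fold change 3.97, SE 0.88, edgeR adjusted p = 0.0221). Cd6, which binds ALCAM, stood at 0.537, 0.0425 and 0.423 CPM in WT and at 2.97, 12.1 and 0.851 CPM in CgA-KO (log2 fold change 4.10, SE 1.06, edgeR adjusted p = 0.0380). These 3 rose without overlap, and none kept the call without CgA-KO replicate 2, with log2 fold changes of 2.05, 2.85 and 2.62 (adjusted p = 0.0976, 0.0719 and 0.132). Cd2, an adhesion receptor, stood at 1.79, 0.425 and 0.466 CPM in WT and at 2.97, 14.8 and 2.06 CPM in CgA-KO (log2 fold change 3.02, SE 0.87, edgeR adjusted p = 0.0542; 1.62 and 0.196 with CgA-KO replicate 2 omitted). Cd5, which damps receptor signals, and Cd27, a receptor of the TNF family, overlapped between genotypes because CgA-KO replicate 3 lay below WT replicate 1, at 0.582 against 0.805 CPM for Cd5 and 1.30 against 1.34 CPM for Cd27. Their log2 fold changes were 2.78 and 2.83 (edgeR adjusted p = 0.0900 and 0.0821), and with CgA-KO replicate 2 omitted the adjusted p values were 0.343 and 0.323.

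Genes of naive and memory T cells differed widely among the CgA-KO livers. Il7r, the receptor for the survival cytokine IL-7, stood at 1.34, 0.298 and 0.762 CPM in WT and at 6.36, 41.8 and 2.28 CPM in CgA-KO. It rose (edgeR adjusted p = 0.0287), and the call was lost once CgA-KO replicate 2 was omitted (adjusted p = 0.0727). Lef1, a transcription factor of naive T cells, stood at 0.179, 0.170 and 0.296 CPM in WT and at 1.25, 7.32 and 0.941 CPM in CgA-KO (log2 fold change 3.83, SE 0.90, edgeR adjusted p = 0.0265; 2.32 and 0.0576 with CgA-KO replicate 2 omitted). No WT liver reached the lowest CgA-KO liver in either gene. Lef1 passed the filter through CgA-KO alone, so its call adds nothing to its read counts. These were 2, 4 and 7 in WT and 27, 231 and 21 in CgA-KO. Tcf7, the partner factor of Lef1, was at 4.83, 6.55 and 4.66 CPM in WT and at 6.17, 50.7 and 4.39 CPM in CgA-KO, so that only CgA-KO replicate 2 lay outside the WT range on the high side. Its log2 fold change was 1.93 with all livers and 0.02 without CgA-KO replicate 2 (edgeR adjusted p = 0.156 and 0.977).

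**Figure D2:**
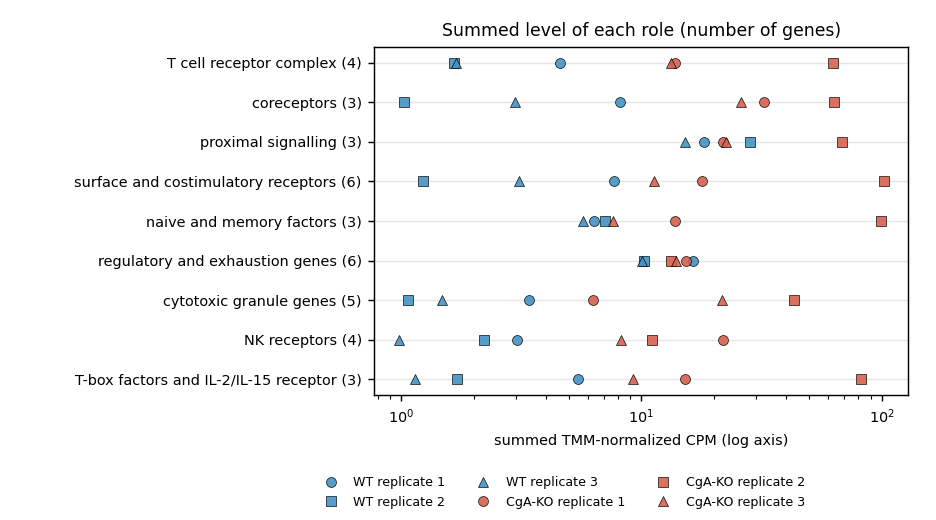
Summed TMM-normalized CPM of the genes of each role on a log axis, one symbol per library, blue for WT and red for CgA-KO. The T cell receptor complex stood at 1.66 to 4.56 CPM in WT and at 13.3 to 62.8 CPM in CgA-KO. Sums of regulatory and exhaustion genes overlapped, at 10.1 to 16.4 and 13.3 to 15.3 CPM. Tox alone averaged 8.81 CPM over the WT livers and 6.44 CPM over the CgA-KO livers, so this sum hides the rarer genes. Of these, Foxp3 and Ctla4 were higher in every CgA-KO liver than in any WT liver, on few reads.

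Regulatory and exhaustion genes gave 0 calls in edgeR's test of all 6 livers, where 4 of 6 were tested and 1 had an unadjusted p under 0.05, and 1 call, Ctla4, in DESeq2. Tox, a nuclear factor of exhausted T cells, stood at 10.7, 7.53 and 8.26 CPM in WT and at 4.87, 8.14 and 6.32 CPM in CgA-KO (log2 fold change -0.44, SE 0.27, edgeR adjusted p = 0.312). Icos, a costimulatory receptor of activated and helper T cells, stood at 1.97, 0.298 and 0.423 CPM in WT and at 7.84, 1.81 and 1.08 CPM in CgA-KO (log2 fold change 2.12, SE 0.91, edgeR adjusted p = 0.162). The groups overlapped in both, and the highest liver was WT replicate 1 for Tox and CgA-KO replicate 1 for Icos. Lag3, an inhibitory receptor, stood at 2.15, 2.25 and 1.27 CPM in WT and at 1.16, 1.87 and 3.72 CPM in CgA-KO (log2 fold change 0.26, SE 0.49, edgeR adjusted p = 0.774), and its sign turned to -0.27 without CgA-KO replicate 3. Pdcd1, which encodes the checkpoint receptor PD-1, stood at 1.52, 0.0425 and 0.0847 CPM in WT and at 0.232, 1.05 and 1.88 CPM in CgA-KO (log2 fold change 1.19, SE 1.15, edgeR adjusted p = 0.538). WT replicate 1 held 17 of its 20 WT reads. Foxp3, the defining factor of regulatory T cells, had 1, 1 and 0 reads in WT and 10, 3 and 8 in CgA-KO, a ratio of 8.11 scaled for depth (95% exact interval 1.98 to 71.4, counting error only). Ctla4, an inhibitory receptor that regulatory T cells hold at a high level, had 0, 1 and 1 reads in WT and 16, 10 and 13 in CgA-KO, a ratio of 15.1 (3.90 to 129). Both are among the 24 separated genes, but every WT library was under 3 reads for both, and for Foxp3 the order rests on 3 reads in CgA-KO replicate 2 against 1 in WT replicate 1, which cannot be told apart at this depth. Without CgA-KO replicate 2, Ctla4 passed the filter through the other CgA-KO livers alone and was called (edgeR adjusted p = 0.0372), so the call adds nothing to the read counts. In that fit Tox stood at -0.61, Icos at 2.47, Lag3 at 0.42 and Pdcd1 at 1.22 on the log2 scale, and none of these 4 was called. Icos stood at 0.82 with CgA-KO replicate 1 omitted (adjusted p = 0.628), and Pdcd1 at 3.98 with WT replicate 1 omitted, where it was called (adjusted p = 0.0406).

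Genes of the killing machinery split between livers. Prf1, which encodes the pore-forming protein perforin, stood at 0.179, 0.170 and 0.0423 CPM in WT and at 0.835, 8.40 and 1.97 CPM in CgA-KO (log2 fold change 4.88, SE 1.01, edgeR adjusted p = 0.0174). Its call held without CgA-KO replicate 2, at 3.50 (edgeR adjusted p = 0.0422). Prf1 passed the filter through CgA-KO alone, so its calls add nothing to its read counts. These were 2, 4 and 1 in WT and 18, 265 and 44 in CgA-KO. Gzmb, a granzyme that sets off apoptosis, stood at 0.537, 0.128 and 0.593 CPM in WT and at 1.90, 12.0 and 4.66 CPM in CgA-KO (log2 fold change 3.92, SE 0.78, edgeR adjusted p = 0.0158; 3.03 and 0.0504 with CgA-KO replicate 2 omitted). Nkg7, a granule membrane protein of killer cells, stood at 1.34, 0.340 and 0.381 CPM in WT and at 1.90, 21.0 and 3.94 CPM in CgA-KO (log2 fold change 3.86, SE 0.96, edgeR adjusted p = 0.0331; 2.23 and 0.102 with CgA-KO replicate 2 omitted). These 3 rose without overlap, with CgA-KO replicate 2 the highest and replicate 1 the lowest of the CgA-KO livers. Gzma, a granzyme of NK cells and effector T cells, stood at 1.07, 0.383 and 0.381 CPM in WT and at 1.25, 0.253 and 7.88 CPM in CgA-KO, so that CgA-KO replicate 2 was the lowest of all 6 livers (log2 fold change 2.43, SE 1.08, edgeR adjusted p = 0.175; 3.03 and 0.0768 with CgA-KO replicate 2 omitted, 0.37 and 0.837 with replicate 3 omitted). Per kilobase of exon, the level of Gzmb was 1.06, 33.1 and 0.414 times that of Gzma in CgA-KO, and in replicate 2 this rests on 378 and 8 reads. In WT the ratio was 0.350, 0.234 and 1.09. Gzmk, a granzyme of memory T cells, had 3, 1 and 2 reads in WT and 8, 45 and 73 in CgA-KO, a ratio of 16.2 scaled for depth (95% exact interval 7.25 to 45.1, counting error only), with all CgA-KO livers above WT.

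Among the 4 NK receptors, Klrk1 and Klrd1 held the calls that changed least, while Klrb1c was not called and Ncr1 did not pass the filter. Klrk1, the activating receptor NKG2D, stood at 1.70, 1.32 and 0.635 CPM in WT and at 15.4, 6.75 and 6.32 CPM in CgA-KO (log2 fold change 3.00, SE 0.49, edgeR adjusted p = 0.00812). Klrd1, the CD94 chain that pairs with NKG2 receptors, stood at 0.179, 0.298 and 0.169 CPM in WT and at 2.51, 3.30 and 1.39 CPM in CgA-KO (log2 fold change 3.42, SE 0.54, edgeR adjusted p = 0.00740). All CgA-KO livers were well above WT in both genes, and CgA-KO replicate 2 was not far from the others. Without that library the log2 fold changes were 3.23 and 3.15 (adjusted p = 0.0233 and 0.0282). Of the 16 called genes, these were the 2 that stayed called in all 6 fits with 1 library omitted. Klrd1 passed the filter through CgA-KO alone, so its calls add nothing to its read counts. These were 2, 7 and 4 in WT and 54, 104 and 31 in CgA-KO. Klrk1 and Klrd1 lie 11.6 kb apart in the NK receptor cluster of chromosome 6. Klrb1c, the NK1.1 receptor, stood at 0.985, 0.383 and 0.169 CPM in WT and at 3.43, 0.982 and 0.448 CPM in CgA-KO, with overlap (log2 fold change 1.77, SE 0.86, edgeR adjusted p = 0.211; 2.07 and 0.244 with CgA-KO replicate 2 omitted, 0.64 and 0.709 with replicate 1 omitted). Ncr1, which encodes the NK cell receptor NKp46, had 2, 5 and 0 reads in WT and 11, 0 and 1 in CgA-KO, a ratio of 1.33 scaled for depth (95% exact interval 0.481 to 3.97, counting error only). Of its CgA-KO reads, all but 1 were in replicate 1. Klrb1c and the other lectin-like receptors have close paralogs, among which reads could have been split.

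Il2rb, the chain that the receptors of IL-2 and IL-15 share, stood at 4.12, 1.36 and 0.804 CPM in WT and at 13.0, 60.2 and 7.70 CPM in CgA-KO, and rose without overlap (log2 fold change 3.80, SE 0.87, edgeR adjusted p = 0.0246; 2.42 and 0.0683 with CgA-KO replicate 2 omitted). Eomes, a T-box factor of memory CD8 T cells and mature NK cells, stood at 0.627, 0.0425 and 0 CPM in WT and at 0.928, 19.3 and 1.08 CPM in CgA-KO (log2 fold change 5.47, SE 1.58, edgeR adjusted p = 0.0544; 2.59 and 0.236 with CgA-KO replicate 2 omitted). Its 610 reads in that library stand against 20 and 24 in the other CgA-KO livers, which lay only a little above WT replicate 1. Tbx21, the sister factor T-bet, stood at 0.716, 0.298 and 0.339 CPM in WT and at 1.16, 2.88 and 0.448 CPM in CgA-KO, with overlap (log2 fold change 1.82, SE 0.73, edgeR adjusted p = 0.135; 0.94 and 0.443 with CgA-KO replicate 2 omitted).

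**Figure D3:**
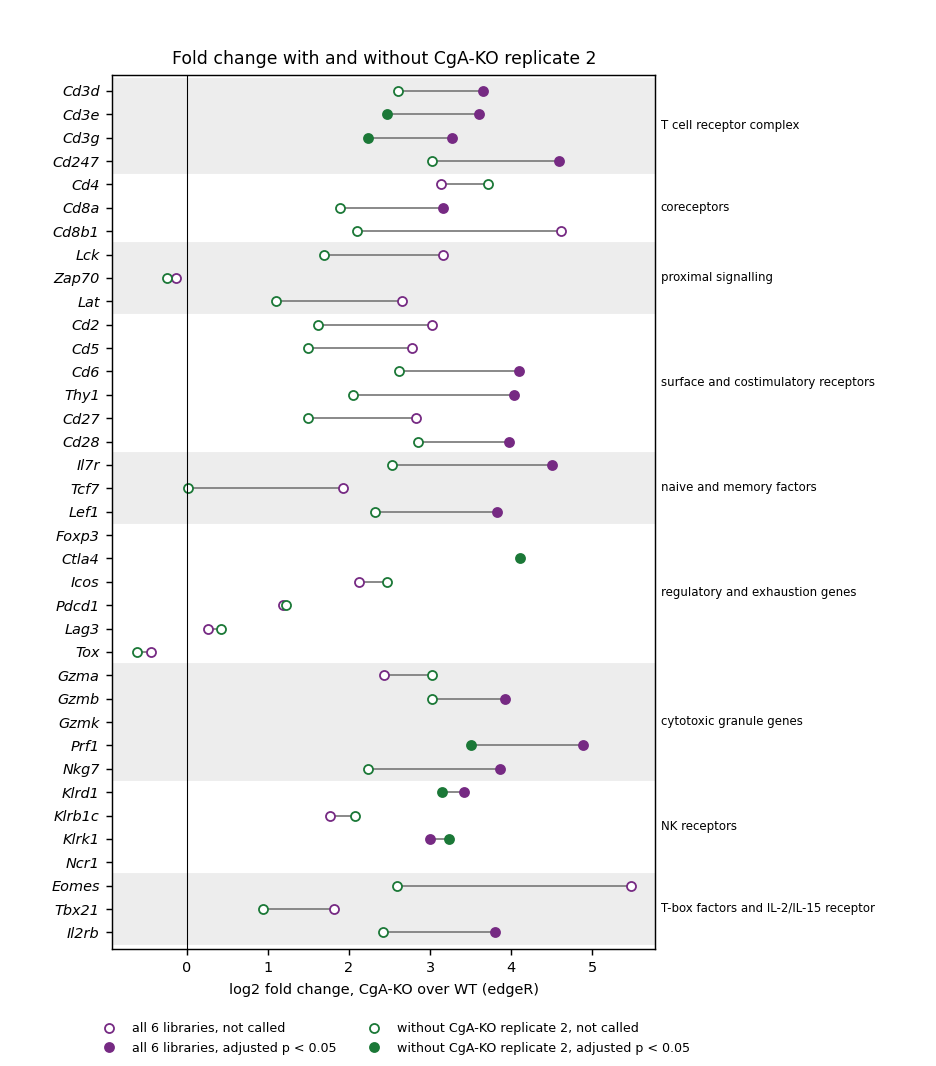
Log2 fold change of CgA-KO over WT from edgeR for each gene, with all 6 libraries (purple) and without CgA-KO replicate 2 (green), filled where the adjusted p was under 0.05. The filled symbols number 16 with all libraries and 6 without that one, and Foxp3, Gzmk and Ncr1 passed the filter in neither fit.

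The CgA-KO livers differed from one another in which genes were high. CgA-KO replicate 2 was the highest of the 3 in 26 of the 37 genes, where it was the highest in 37.7% of all genes tested. It exceeded 4 times the mean of the other CgA-KO livers in 21 genes, where this held for 1.02% of all genes tested. Eomes was 19.3 times that mean, Cd8b1 14.4, Il7r 9.67, Thy1 9.66 and Tcf7 9.60 times. In 11 genes it lay below that mean, by most in Gzma (0.0555) and Cd4 (0.0920), and in Ncr1 it had 0 reads. CgA-KO replicate 1 was the highest in 7 genes, Cd4, Foxp3, Ctla4, Icos, Klrb1c, Klrk1 and Ncr1. CgA-KO replicate 3 was the highest in 4, Pdcd1, Lag3, Gzma and Gzmk. The CD8 chains, Il7r, Tcf7, Lef1 and Eomes were highest in the liver in which Cd4 and Gzma were lowest among the CgA-KO livers.

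**Figure D4:**
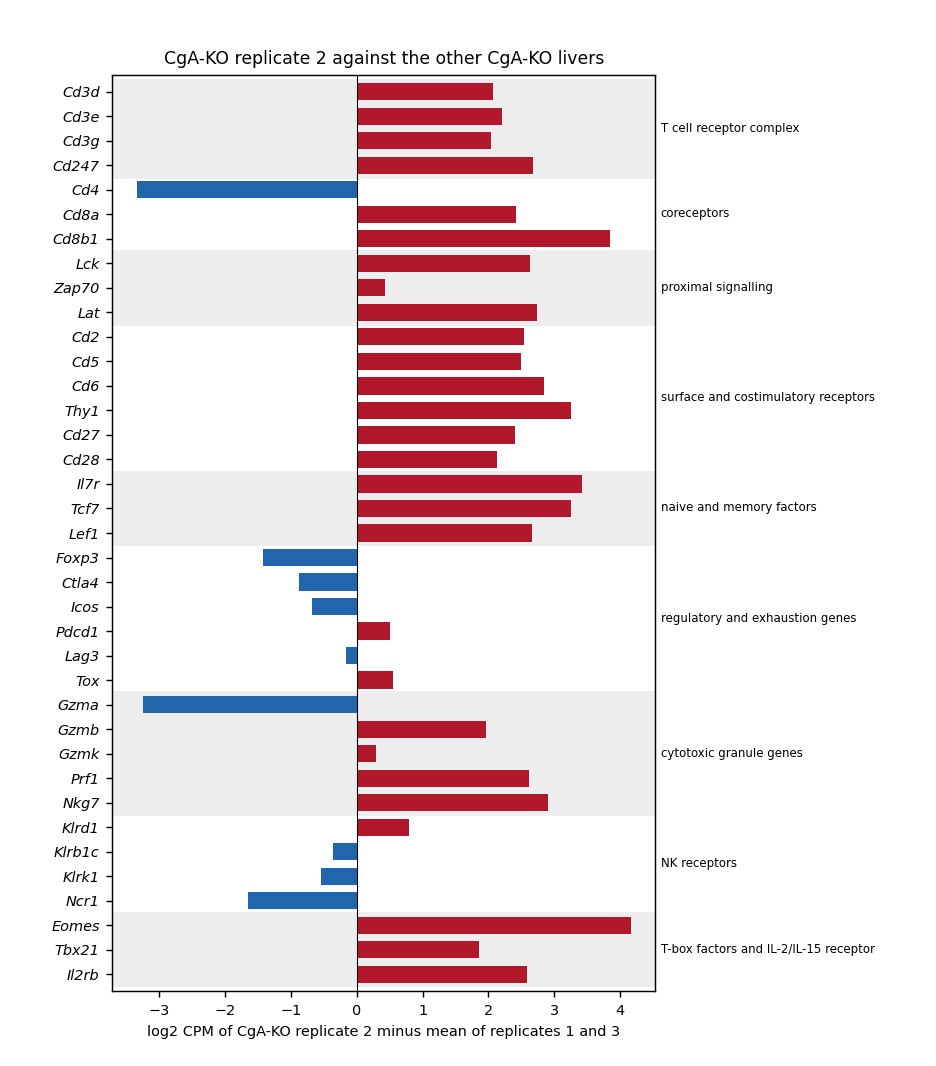
Log2 CPM (prior count 2) of CgA-KO replicate 2 minus the mean of CgA-KO replicates 1 and 3 for each gene, red bars where replicate 2 was higher and blue where it was lower. Eomes, Cd8b1 and Il7r reach furthest to the right, and Cd4 and Gzma furthest to the left.

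The levels were also read against the common leukocyte antigen Ptprc (CD45), which itself rose. Ptprc rose from 23.5, 4.81 and 7.41 CPM in WT to 72.1, 74.9 and 50.2 CPM in CgA-KO (log2 fold change 2.50, SE 0.52, edgeR adjusted p = 0.0179; 2.43 and 0.0616 with CgA-KO replicate 2 omitted). As a ratio to Ptprc per kilobase of exon in the same library, 33 of the 37 genes overlapped between the genotypes. Cd28 alone was above WT in every CgA-KO liver, and Zap70, Lag3 and Tox were below, where 0.245% of all genes tested were above and 87.7% below. Cd3e per Ptprc was 0.257, 0.477 and 0.487 in WT and 0.277, 1.29 and 0.429 in CgA-KO, so that only CgA-KO replicate 2 left the WT range on the high side. Tox per Ptprc was 1.09, 3.77 and 2.68 in WT and 0.163, 0.262 and 0.303 in CgA-KO. As a ratio to Cd3e, 32 genes overlapped, and Zap70, Tcf7, Lag3, Tox and Tbx21 were below WT in every CgA-KO liver, beside 90.0% of all genes tested. Cd3e, like Ptprc, was itself higher in CgA-KO, so a gene with no change of its own has a lower ratio.

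Partners of these genes made up 7 lists of 113 names, of which 106 have a row. Of the 80 that passed the filter, 39 were higher and 4 lower in CgA-KO, beside 8.60% higher and 3.84% lower of all genes tested. Their median log2 fold change was 2.38. Without CgA-KO replicate 2 the calls were 23 higher and 2 lower, beside 710 higher and 266 lower of 13974 genes tested. The same shares of all genes are the background for the counts of each partner list below. Trbc2, a constant region of the T cell receptor, stood at 1.61, 1.11 and 0.466 CPM in WT and at 5.85, 32.3 and 6.27 CPM in CgA-KO (log2 fold change 3.88, SE 0.77, edgeR adjusted p = 0.0159; 2.60 and 0.0324 with CgA-KO replicate 2 omitted). As for the CD3 chains, CgA-KO replicate 2 was its highest liver. Trac, Trbc1, Trdc, Tcrg-C1, Tcrg-C2 and Tcrg-C4 have no row under these names in the deposited counts. In receptor signalling 10 of 18 genes rose (4 of 18 with CgA-KO replicate 2 omitted), among them Sh2d1a, the adaptor SAP (log2 fold change 4.95, edgeR adjusted p = 0.0212). Sh2d1a passed the filter through CgA-KO alone, so its call adds nothing to its read counts. These were few in WT, at 1, 2 and 0, and 14, 122 and 17 in CgA-KO. It was not called with CgA-KO replicate 2 omitted (3.65, adjusted p = 0.0579).

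Among ligands of the receptors, 4 rose and 2 fell of 11 that passed the filter (3 and 1 with CgA-KO replicate 2 omitted). Cd274, which encodes the PD-1 ligand PD-L1, stood at 4.21, 1.83 and 1.61 CPM in WT and at 18.1, 15.8 and 11.8 CPM in CgA-KO (log2 fold change 2.63, SE 0.39, edgeR adjusted p = 0.00597). Cd86, a ligand of CD28 and CTLA-4, stood at 6.98, 2.30 and 1.61 CPM in WT and at 37.7, 8.97 and 27.1 CPM in CgA-KO (log2 fold change 2.83, SE 0.64, edgeR adjusted p = 0.0241). Both rose without overlap, and among the CgA-KO livers Cd86, like Cd4, was lowest in replicate 2. Raet1e, a ligand of NKG2D, rose by 1.00 on the log2 scale (SE 0.27, edgeR adjusted p = 0.0422), and Cd48, a ligand of CD2 in mice, by 2.88 (SE 0.30, edgeR adjusted p = 0.00296). Alcam, the ligand of CD6, stood at 46.0, 40.8 and 42.1 CPM in WT and at 27.6, 27.9 and 25.1 CPM in CgA-KO (log2 fold change -0.67, SE 0.16, edgeR adjusted p = 0.0249). Clec2d, a ligand of an NK lectin receptor, fell likewise (log2 fold change -1.07, SE 0.19, edgeR adjusted p = 0.0119). Of these 6, Raet1e (0.77, adjusted p = 0.0913) and Alcam (-0.67, adjusted p = 0.0596) lost the call with CgA-KO replicate 2 omitted.

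Of homing genes, 8 of 10 rose (5 of 10 with CgA-KO replicate 2 omitted). Ccl5, a chemokine made by activated T and NK cells, stood at 5.01, 0.553 and 1.14 CPM in WT and at 8.03, 69.0 and 12.2 CPM in CgA-KO (log2 fold change 3.88, SE 1.00, edgeR adjusted p = 0.0376). Cxcl10, a chemokine that draws CXCR3-bearing T cells, stood at 1.97, 1.96 and 1.06 CPM in WT and at 7.05, 9.95 and 16.5 CPM in CgA-KO (log2 fold change 2.76, SE 0.40, edgeR adjusted p = 0.00581). Its receptor Cxcr3 stood at 0.447, 0.553 and 0.466 CPM in WT and at 2.97, 19.2 and 1.34 CPM in CgA-KO (log2 fold change 3.99, SE 0.96, edgeR adjusted p = 0.0291). The receptor was highest in CgA-KO replicate 2 and the chemokine in replicate 3. Cxcr6, a receptor of liver-resident T and NKT cells, stood at 0.805, 0.851 and 0.381 CPM in WT and at 3.76, 1.27 and 2.91 CPM in CgA-KO (log2 fold change 1.97, SE 0.54, edgeR adjusted p = 0.0452), lowest of the CgA-KO livers in replicate 2. With CgA-KO replicate 2 omitted, Cxcl10 (2.88) and Cxcr6 (2.35) kept the call and Ccl5 (2.31, adjusted p = 0.132) and Cxcr3 (2.16, adjusted p = 0.0544) lost it.

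Other lists held fewer calls. Of cytokines and their receptors, 3 of 9 rose and 1 fell. Il18rap, a chain of the IL-18 receptor, had a log2 fold change of 4.17 (SE 0.85, edgeR adjusted p = 0.0168), and Il15ra, which presents IL-15 to IL2RB, one of -0.84 (SE 0.20, edgeR adjusted p = 0.0268). Ifng, the interferon of these cells, did not pass the filter, with 3, 1 and 2 reads in WT and 7, 16 and 4 in CgA-KO. Of other NK and cytotoxic genes, 7 of 12 rose, among them Klrc1, the NKG2A partner of CD94 (3.42, SE 0.68, edgeR adjusted p = 0.0158), and Tyrobp, an adaptor that myeloid cells share (2.47, SE 0.33, edgeR adjusted p = 0.00486). Klrc1 passed the filter through CgA-KO alone, so its call adds nothing to its read counts. These were 2, 3 and 2 in WT and 42, 18 and 36 in CgA-KO. Gzmm, a granzyme, had 380 reads in CgA-KO replicate 2 and 3 to 8 reads in each other library. Of other T cell state genes, 6 of 19 rose and 1 fell. Cd44, a marker of memory T cells that other cells share, rose by 3.07 (SE 0.41, edgeR adjusted p = 0.00484). Il15ra (adjusted p = 0.0806) lost the call with CgA-KO replicate 2 omitted. In that fit 4 genes in place of 7 were called higher among other NK and cytotoxic genes, without Cd96, Cd226 and Hcst, and 4 in place of 6 among T cell state genes, without Bcl11b and Cd69.

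Markers of other immune cells moved beside the T and NK genes. The counts of calls below stand beside 8.60% higher and 3.84% lower of all genes tested in edgeR. Without CgA-KO replicate 2 the share called higher was 5.08%, and 266 of 13974 genes were called lower. Of 5 general leukocyte markers 5 rose (3 with CgA-KO replicate 2 omitted), and they summed to 22.7 to 77.8 CPM in WT and 232 to 432 CPM in CgA-KO. Kupffer cell markers rose in 6 of 7 with and without that library, from 85.5 to 180 CPM in WT to 812 to 1227 CPM in CgA-KO. B and plasma cell markers gave 0 calls of 9 in edgeR, 1 at an unadjusted p under 0.05 and 1 in DESeq2. They summed to 67.1, 11.2 and 11.2 CPM in WT and 74.8, 26.0 and 19.7 CPM in CgA-KO. WT replicate 1, the highest WT liver for those markers, was also the highest WT liver in the sum of the 37 genes. Sums of dendritic cell (7.74 to 16.9 and 21.2 to 28.6 CPM), erythroid (118 to 291 and 333 to 476 CPM) and stellate and fibroblast markers (133 to 185 and 246 to 393 CPM) were also separated between WT and CgA-KO, with 2, 1 and 3 genes called higher and 1 erythroid gene lower. With CgA-KO replicate 2 omitted, 0 genes of these lists were called in either direction. Among lymphoid progenitor markers, Rag1 and Igll1 were at 0 in all 6 libraries. Dividing cell markers summed to 4.51 to 15.5 CPM in WT and 21.7 to 43.2 CPM in CgA-KO, with 2 of 5 called and 0 with CgA-KO replicate 2 omitted. The part of these cells in the levels of the T and NK genes was not tested.

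**Figure D5:**
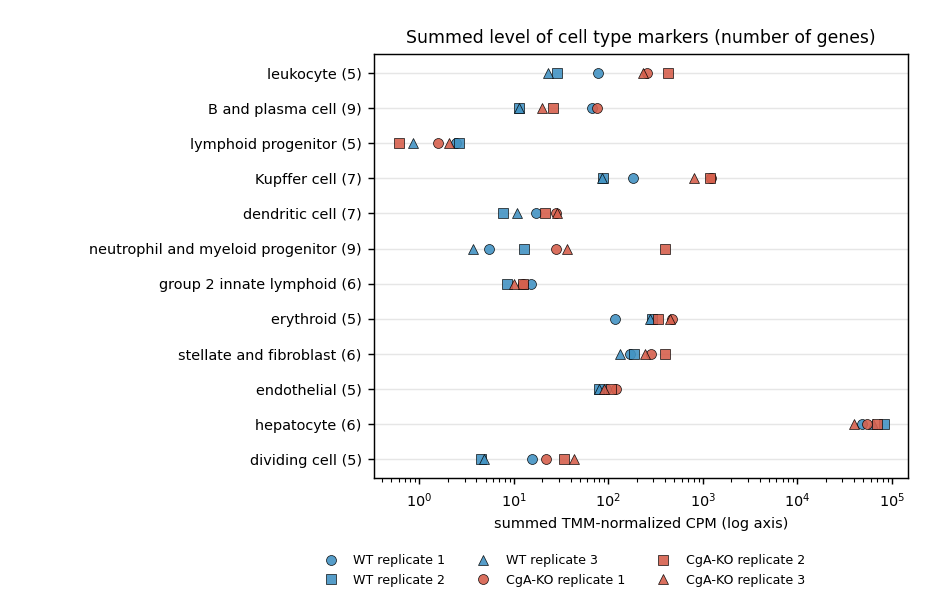
Summed TMM-normalized CPM of 12 lists of cell type markers on a log axis, one symbol per library, blue for WT and red for CgA-KO. The sums of leukocyte, Kupffer, dendritic, neutrophil, erythroid, stellate and dividing cell markers separate the genotypes, those of B and plasma cell markers do not, and CgA-KO replicate 2 stands alone at 393 CPM for neutrophil and myeloid progenitor markers.

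Some members share their locus with another annotated gene, and strand was not stated for the quantification. Coding genes overlap Cd247 (Pou2f1), Cd27 (Vamp1), Foxp3 (Ppp1r3f and Ccdc22), Gzmk (Esm1) and Klrb1c (Gm44511), and antisense genes overlap Cd3e, Tcf7, Lef1, Tox and Eomes. Cd3d, Cd3g, Cd4, Cd8a and Klrk1 overlap none. These overlaps are of whole gene spans, introns included, and shared exons were not checked. The values of genes with an overlap may be less certain for this reason, which was not tested.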

How the data were processed

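Livers of 3 WT and 3 CgA-KO mice were profiled by mRNA sequencing, one library per mouse, and groups follow the sample labels. The authors used Salmon 1.4.0 on the GRCm38 transcriptome, by transcript, and deposited counts, unscaled whole numbers on 32212 rows. How transcripts became genes is not stated, 78 rows repeat a symbol, and 0 columns lack a sample.

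The main test was that of edgeR 4.0.16 (R 4.3.3). The filter filterByExpr with a minimum count of 10 left 13867 genes. TMM factors, robust quasi-likelihood fits on the whole table and Benjamini-Hochberg adjustment followed, with calls at an adjusted p under 0.05. The standard error (SE) of a log2 fold change, the change over the square root of its F statistic, is an approximation. Intervals (95%, exact) and floors cover counting error only. Exon lengths and overlaps are those of GENCODE on GRCm38. The procedure was tested on simulated data.

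The genes and lists were chosen with earlier results of these data known. All 37 are accounted for by role, with the level in each library at least for the 2 most abundant of each role and for those below the filter. Alternatives were DESeq2 1.42.0, limma-voom (limma 3.58.1), RLE factors, library size alone, other filters, a replicate block and fits without 1 library. Figures used matplotlib 3.10.9 in Python 3.11.15. No 2 replicates agreed within sampling noise, so each counts as a sample. A few genes of the partner lists are counted but not reported singly here.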

Additional observations from a re-analysis of the deposited data

How the results depend on the processing

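The direction of the 16 called genes held under each of the 13 alternatives that tested them. The number called among the 37 was 6 with limma-voom, 9 with a filter of a total of at least 1 count, 4 with at least 10 counts in every library, where 11 of the 37 were tested, and 2 to 21 in the fits without 1 library. That range was reached without WT replicate 2 or 3 (2 each, Klrd1 and Klrk1) and without CgA-KO replicate 3 (21). Over all genes tested, 1253 of 13867 were higher with limma-voom, 1107 of 19693 with a total of at least 1 count and 953 of 12268 with at least 10 counts in every library. Without WT replicate 2 it was 469 of 14155, without WT replicate 3 it was 276 of 14111 and without CgA-KO replicate 3 it was 959 of 14270. With CgA-KO replicate 2 omitted 6 of the 37 were called, of which 5 were among the 16, beside 710 of 13974 genes. Of the 16, 7 were called with a total of at least 1 count. The cause was not tested. Over all genes DESeq2 called 2592 against 1726, and fits without 1 library 394 to 2126. For the partner lists the count of 43 was 24 with at least 10 counts in every library and 11 to 44 without 1 library, and for the marker lists 24 became 8 to 30. Scaling by library size alone moved the median over all genes, on the log2 scale, from -0.01 to 0.26 and the share of calls that were higher from 69.1% to 86.6%. It left 13 of the 37 genes called, beside 1293 of 13867 genes higher, and turned Zap70 to 0.21. Zap70 ranged from -0.33 to 0.35 without 1 library, turning sign without WT replicate 2 (0.35) and CgA-KO replicate 1 (0.03), and Lag3 from -0.27 to 0.60, turning without CgA-KO replicate 3. The labels do not say whether the replicate numbers pair the livers. Same-numbered deviations correlated at 0.199, 0.0127 and -0.0659, and WT replicate 2 correlated best with CgA-KO replicate 3 (0.234). With so few livers these correlations cannot show whether livers were paired. With a replicate block the count was 10, of which 9 were among the 16, beside 1093 of 13867 genes higher. At 3 counts a library, levels under 0.0950 to 0.268 CPM could not be seen, which limits Foxp3, Ctla4, Gzmk and Ncr1 and, in WT, 6 of the called genes.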
